A study of Homo sapiens with 18 samples.

Results

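Human podocytes of the telomerase-immortalised line PODO/TERT256 were cultured on 3D hemispheres in the presence of macrophages obtained from THP-1 (a monocytic leukaemia line of human origin), and cells on a fractal surface were compared with cells on a smooth one. The comparison rests on 6 of the 18 libraries of the series, chosen by their labels: 3 from smooth hemispheres with THP-1 macrophages and 3 from fractal hemispheres with THP-1 macrophages. The other 12 libraries are the same line on both surfaces, either untreated (control) or treated with TNF-α and IL-6 (cytokines), with 3 libraries a group. They are used here to measure how far the difference between surfaces departs from that without macrophages. All libraries come from 1 line carried on hemispheres, and the labels do not say whether the macrophages touched the podocytes, for how long, or whether they were removed before the RNA was taken. No label states that replicates are independent cultures, and the p-values therefore reflect library-to-library spread, part or all of which may be technical.

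Podocytes line the outer face of the glomerular filter in the kidney, and in the mature glomerulus they have left the cell cycle. Macrophages in an inflamed glomerulus release TNF, interleukin 1 and other mediators, which act on neighbouring cells through NF-κB, a transcription factor that turns on chemokines, adhesion molecules and cytokines, and through STAT factors. Podocytes are also held to the matrix by integrins coupled to actin, a system that responds to the shape and stiffness of the surface. Of 37 podocyte structure and disease genes, 28 had enough counts to be tested, among them SYNPO, PODXL and ACTN4, whose levels are given with that list. The other 9 included defining markers of mature podocytes: NPHS1, which encodes nephrin of the slit diaphragm, had 6 counts over all 18 libraries, and WT1, a podocyte transcription factor, had 37.

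Levels are counts per 1e6 counts (CPM) with TMM scaling, a correction for differences in RNA composition, unless stated otherwise. Fold changes are log2 values, fractal minus smooth, ± SE from edgeR's quasi-likelihood fit to all 18 libraries, and a gene was called where its p, adjusted by the Benjamini-Hochberg method over the 16129 genes tested, was under 0.05. Rose, fell, higher and lower refer to the fractal surface.

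One library stood apart. Fractal THP-1 replicate 3 held 11488204 counts against 15595916 to 17133422 in the other 5 THP-1 libraries. Thinned to that smallest total, those 5 showed 21367 to 22367 genes with a count, and replicate 3 showed 17934. Its share of counts on mitochondrially encoded genes was 0.536% (95% Wilson interval 0.532 to 0.540%, counting error only), against 3.61 to 3.8% in the other 5. A chi-square test of counts between libraries of this group gave 58.2 and 57.1 per degree of freedom for the pairs with replicate 3 and 3.32 for replicates 1 and 2. The smooth THP-1 pairs gave 3.77 to 6.14. Genes highest in replicate 3 against replicates 1 and 2 were U2AF1, ROMO1, ANTKMT, CCDC85B and FADD, and the lowest were MT-ATP6, MT-CYB, MT-CO2, MT-ND4 and MT-CO3. Outside the THP-1 groups, smooth cytokines replicate 2 stood apart with a mitochondrial share of 7.01%. The mean mitochondrial share was 1.03 percentage points lower on the fractal surface (exact permutation test over libraries, two-sided, p = 0.7, 0.1 being the smallest p that 3 against 3 allows). Without replicate 3 it was 0.033 points higher. Because of this library, where counts of called genes in a list under THP-1 are reported, they are given with and without it.

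Transcripts of macrophage markers that were nearly absent from the controls were found in both THP-1 groups. Of 60 macrophage markers, 53 averaged under 0.5 CPM in the 6 controls, and their summed level (CPM of the unscaled totals) was 66.5, 69.6 and 74.6 in the smooth THP-1 libraries and 30.8, 27.5 and 22.5 in the fractal ones. All smooth values lay above all fractal values, and the fractal mean was 0.384 of the smooth one (exact permutation test, two-sided, p = 0.1, the smallest possible). The untreated groups averaged 1.74 and 1.27 and the cytokine groups 2.07 and 1.94. Fewer macrophages, less RNA per macrophage and expression of these genes by the podocytes cannot be told apart in bulk samples. Of these 53 markers, 24 had more than 3 counts in both groups, with a median fractal-to-smooth ratio of 0.372 and 21 ratios under 1, and 15 had 0 counts in all 6 THP-1 libraries, among them MRC1, MARCO, CD86, S100A8, MPEG1 and MPO. CD68 had 2 counts over the smooth and 1 over the fractal libraries, and LYZ had 3 and 1. The gene with the most counts among these markers was ITGB2, the β2 integrin chain of leukocytes, with 21, 22.7 and 22.9 CPM on the smooth surface and 10.8, 7.03 and 8.0 CPM on the fractal one (log2 fold change -1.36 ± 0.23, adjusted p = 1.19e-04). LAPTM5 and ITGAX also fell, although LAPTM5 missed the threshold in DESeq2 (adjusted p = 0.0812). CORO1A and CD14 lie outside the 53, with 233 and 104 counts over the controls. CORO1A fell, and CD14, the lipopolysaccharide co-receptor, did not pass edgeR's test (log2 fold change 0.26 ± 0.29, adjusted p = 0.581). Of the 60 markers 20 were tested, of which 0 rose and 8 fell (8.25% and 11.7% of all genes). Without replicate 3, 0 of 22 rose and 6 fell (9.09% and 14.0% of all genes).

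**Figure D1:**
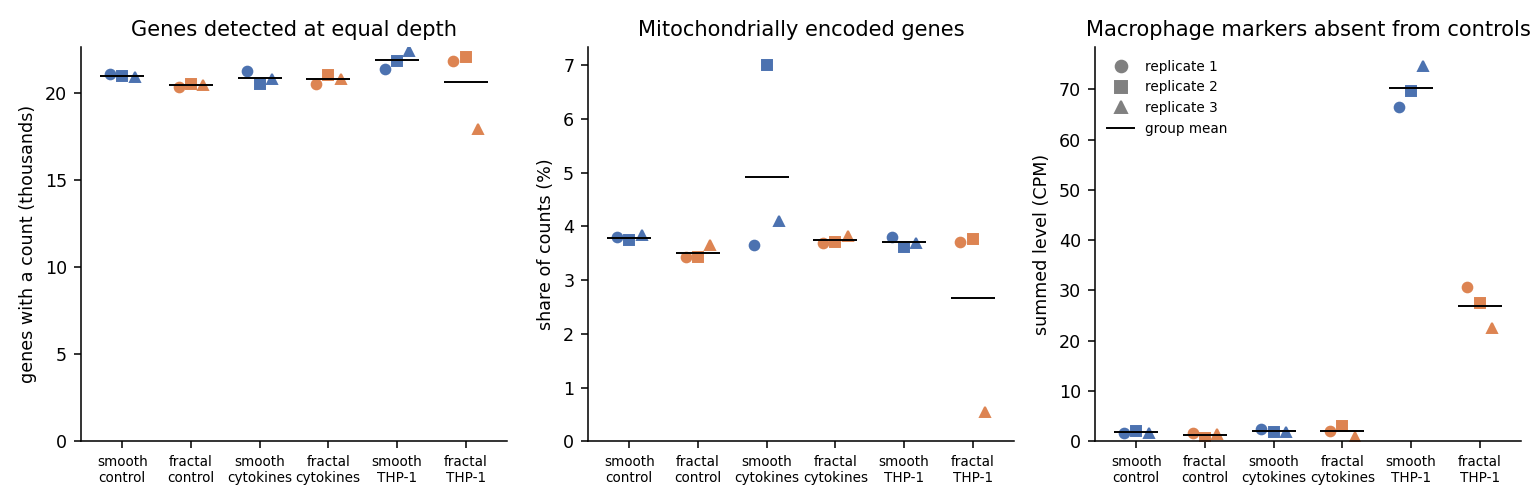
Genes with a count after thinning every library to the smallest total (left), share of counts on mitochondrially encoded genes (middle, %) and summed CPM of the 53 macrophage markers absent from the controls (right) in all 18 libraries, where each symbol is a replicate and each line a group mean. Fractal THP-1 replicate 3 lies lowest in the first 2 panels, and the macrophage sum is 66.5 to 74.6 in the smooth and 22.5 to 30.8 in the fractal THP-1 libraries, above all others.

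Under THP-1 macrophages 3220 of the 16129 genes tested (20.0%) differed between the surfaces, 1330 higher (8.25%) and 1890 lower (11.7%), with a median log2 fold change over all genes of -0.004. With upper-quartile scaling the split was even, at 1625 higher and 1626 lower. The 3 values of one group lay wholly above those of the other in 5010 genes (31.1%), 2225 with the fractal group higher (13.8%) and 2785 lower (17.3%). The same comparison called 286 genes (1.77%) in untreated cells, 105 higher (0.651%) and 181 lower (1.12%), and 719 (4.46%) under cytokines, 277 higher (1.72%) and 442 lower (2.74%). Without fractal THP-1 replicate 3, 3847 of 16661 genes were called (23.1%), 1514 higher (9.09%) and 2333 lower (14.0%). Of the genes called with it, 1035 of the 1330 higher and 1659 of the 1890 lower were called again, and 0 in the other direction. Fitted to the 6 THP-1 libraries alone, the test called 1412 of 14983 genes, 584 higher and 828 lower. Fitted to the 5 that remain without replicate 3 it called 4482 of 15538, 1961 higher and 2521 lower. In the fit to all 6, 34 of 35 mitosis genes and 31 of 35 replication genes were still called lower. It called 5 in place of 11 lower interferon genes, 6 in place of 11 lower podocyte genes and 3 in place of 9 lower actin genes. Stromal matrix held 8 in place of 14 higher genes (30 of the 32 tested there). Calls over all genes were likewise fewer, at 828 in place of 1890 lower and 584 in place of 1330 higher. Without replicate 3 that fit called 35 mitosis and 34 replication genes lower, 14 interferon genes, 10 podocyte genes and 11 actin genes lower and 15 stromal matrix genes higher. These lists are described in turn.

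The difference between surfaces under THP-1 was itself tested against that in untreated cells and against that under cytokines. It departed from the controls in 2134 genes (13.2%), 863 higher (5.35%) and 1271 lower (7.88%), and from cytokines in 1847 (11.5%), 813 higher (5.04%) and 1034 lower (6.41%). Both tests share the 6 THP-1 libraries and are not independent. Without fractal THP-1 replicate 3 the first count was 3266, 1280 higher and 1986 lower, and 2047 of the 2134 genes were called again in the same direction. With upper-quartile scaling the split of the first was 1077 higher and 1014 lower, and that of the second 914 and 916. Of the 3220 genes called under THP-1, 75 were higher and 102 lower on the fractal surface under cytokines as well, while 113 rose under THP-1 and fell under cytokines and 52 did the reverse. In the controls these 4 counts were 25, 19, 65 and 24.

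The genes with the highest fold, each at 5 CPM or more in the higher group with no overlap between groups, were led by BDKRB2 (ENSG00000168398, chr14:96204679-96244166, plus strand), the bradykinin B2 receptor. BDKRB2 stood at 7.73, 7.35 and 6.19 CPM on the smooth surface and 47.5, 41.5 and 58.3 CPM on the fractal one (log2 fold change 2.79 ± 0.22, adjusted p = 9.15e-10). It was under 1 CPM in both untreated groups and 6.49 ± 2.45 and 4.66 ± 1.31 CPM (SD, n = 3) under cytokines on the smooth and the fractal surface. The difference under THP-1 exceeded that under cytokines by 3.26 ± 0.32 (adjusted p = 7.17e-08). DHRS9, a retinol dehydrogenase, was at 1.22, 0.854 and 1.68 CPM on the smooth surface and 7.91, 9.69 and 7.75 CPM on the fractal one (log2 fold change 2.75 ± 0.33, adjusted p = 1.31e-06). GALNT15, an enzyme of O-linked glycosylation, was at 46.9, 50.1 and 51.7 CPM on the smooth surface and 226, 206 and 240.4 CPM on the fractal one (log2 fold change 2.18 ± 0.13, adjusted p = 1.23e-11). In these 3 genes the lowest fractal library lay far above the highest smooth one, no overlap being part of the rule that chose them. The 12 highest by this rule also held CSGALNACT1, an enzyme of chondroitin sulfate synthesis (2.69 ± 0.28), KCND2, a potassium channel (2.48 ± 0.45), CYTIP (2.20 ± 0.20), CLSTN2 (2.14 ± 0.23), and STAT4, a transcription factor of interleukin 12 signalling (2.12 ± 0.23). Among the others were SAA1, SAA2 and CXCL6, described with the inflammatory genes.

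At the low end stood SERPINB2 (ENSG00000197632, chr18:63871692-63903890, plus strand), which encodes plasminogen activator inhibitor 2. SERPINB2 was at 55.1, 58.8 and 52.7 CPM on the smooth surface and 6.21, 7.03 and 5.81 CPM on the fractal one (log2 fold change -3.12 ± 0.17, adjusted p = 2.68e-12). The fractal THP-1 libraries were near the untreated ones, at 6.96 ± 0.88 and 5.06 ± 0.296 CPM (SD, n = 3) on the smooth and the fractal surface, while the smooth THP-1 libraries were well above. Under cytokines the group means were 25.7 ± 5.36 and 4.58 ± 1.27 CPM. ANKRD1, a target of the mechanosensitive coactivators YAP and TAZ, was at 11.8, 11 and 11.2 CPM on the smooth surface and 1.88, 2.54 and 1.09 CPM on the fractal one (log2 fold change -2.57 ± 0.23, adjusted p = 1.58e-08). Its untreated means were 70.3 ± 1.07 and 72.1 ± 1.93 CPM, so that it was low in both THP-1 groups and lowest on the fractal surface. The other 10 of the 12 lowest, CENPM, SKA3, RRM2, FOXM1, CLSPN, DDIAS, SPC25, UBE2C, SGO1 and ESCO2, include genes of DNA replication, the kinetochore and mitosis, which follow as groups.

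Genes of cell division were lower on the fractal surface throughout the lists examined. All 35 tested genes of mitosis and the kinetochore were called lower, against 11.7% of all genes, with a median log2 fold change of -2.00 (-0.004 over all genes) and a range of -2.43 to -1.33. All 35 tested genes of DNA replication and the G1/S step were also called lower, with a median of -1.47 and a range of -2.59 to -0.49. Both counts were again 35 without fractal THP-1 replicate 3, with medians of -1.94 and -1.54. In the controls, 1 of the 35 mitosis genes and 0 of the 35 replication genes were lower (1.12% of all genes), and under cytokines 0 and 1 (2.74%). These counts are near the shares over all genes. The median log2 fold changes of the mitosis and the replication genes were -0.18 and 0.11 in the controls and -0.11 and -0.20 under cytokines. The difference under THP-1 was lower than that in the controls for 34 mitosis genes (7.88% of all genes) and 33 replication genes, and lower than that under cytokines for 34 and 28 (6.41%).

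The summed level of the mitosis genes was 2042, 1885 and 1883 CPM in the smooth THP-1 libraries and 495, 509 and 465 in the fractal ones. That of the replication genes was 1064, 1045 and 1009 CPM against 427, 402 and 436. In both sums the groups were far apart and replicate 3 lay with the other fractal libraries. The mitosis sum averaged 3725 CPM in the smooth and 3295 in the fractal controls and 1822 and 1668 under cytokines, so the smooth THP-1 libraries were close to the cytokine groups and the fractal THP-1 libraries were the lowest of all groups. The replication sum averaged 1102 and 1193 CPM in controls and 907 and 792 under cytokines. In the controls the fractal libraries all lay below the smooth ones in the mitosis sum and above them in the replication sum. Under cytokines the groups overlapped in both sums. The macrophage marker sum was also lower in the fractal THP-1 libraries, at 22.5 to 30.8 CPM against 66.5 to 74.6 in the smooth ones. The part of the macrophages' RNA, if any, in the difference between the THP-1 groups was not tested.

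**Figure D2:**
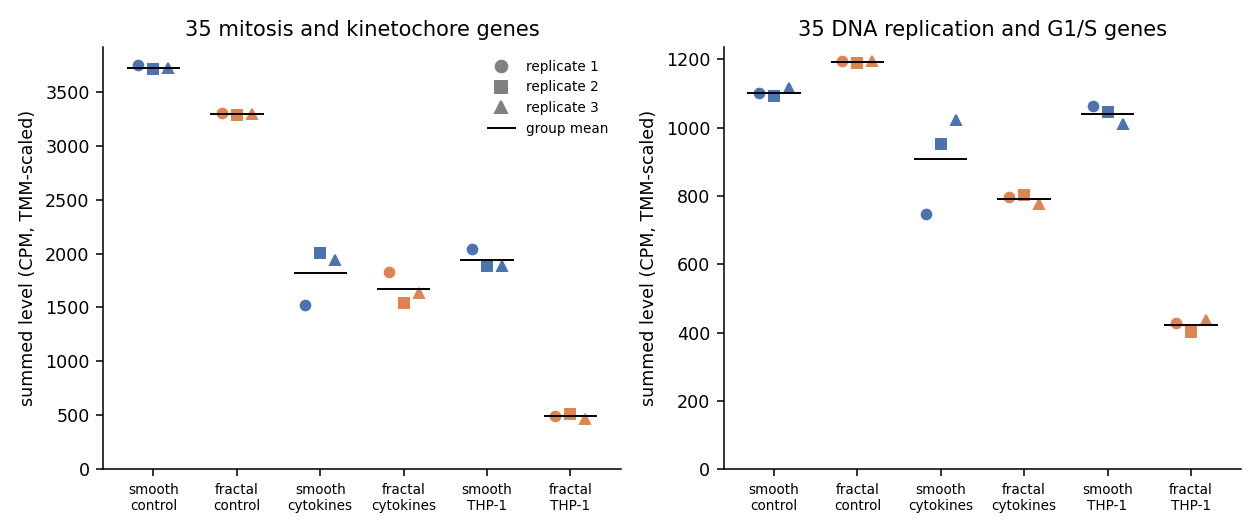
Summed CPM (TMM-scaled) of 35 mitosis and kinetochore genes (left) and 35 DNA replication and G1/S genes (right) in each of the 18 libraries, with replicates as symbols and group means as lines. The fractal THP-1 libraries lie lowest in both panels, at 465 to 509 and 402 to 436 CPM.

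Among the mitosis genes, ANLN (ENSG00000011426, chr7:36389806-36453791, plus strand), whose product anillin builds the contractile ring of cytokinesis, was at 175, 159.5 and 159 CPM on the smooth surface and 40, 38.7 and 39.8 CPM on the fractal one (log2 fold change -2.06 ± 0.09, adjusted p = 2.64e-13). TOP2A (ENSG00000131747, chr17:40388516-40417950, minus strand), topoisomerase II, which disentangles sister chromatids, was at 205, 164 and 188 CPM on the smooth surface and 52.5, 50.6 and 49.4 CPM on the fractal one (log2 fold change -1.87 ± 0.09, adjusted p = 8.33e-13). UBE2C, the ubiquitin-conjugating enzyme of the anaphase-promoting complex, was at 38, 35.8 and 35.2 CPM on the smooth surface and 6.33, 7.8 and 5.98 CPM on the fractal one (log2 fold change -2.43 ± 0.14, adjusted p = 3.69e-12). In each of the 3 the fractal libraries were close together and far below the smooth ones. FOXM1, a transcription factor of late cell-cycle genes, was at 47.4, 43.9 and 45.7 CPM on the smooth surface and 8.09, 9.86 and 4.38 CPM on the fractal one (log2 fold change -2.58 ± 0.18, adjusted p = 5.24e-10). ASPM and TPX2, both of the spindle, fell by 1.95 and 1.88 on the log2 scale. Among the replication genes, RRM2, the small subunit of ribonucleotide reductase, was at 45.6, 44.6 and 36.4 CPM on the smooth surface and 7.09, 8.68 and 4.97 CPM on the fractal one (log2 fold change -2.59 ± 0.16, adjusted p = 1.12e-11). Deoxynucleotide supply, origin licensing and checkpoint genes were alike in direction. CLSPN (ENSG00000092853, chr1:35720218-35769967, minus strand), claspin of the replication checkpoint, was at 20.3, 15.3 and 18.1 CPM on the smooth surface and 3.87, 3.13 and 2.27 CPM on the fractal one (log2 fold change -2.50 ± 0.20, adjusted p = 1.42e-09). CDC6 (ENSG00000094804, chr17:40287633-40304657, plus strand), which loads the replicative helicase, was at 25.6, 21.9 and 21.7 CPM on the smooth surface and 5.69, 5.43 and 7.75 CPM on the fractal one (log2 fold change -1.89 ± 0.14, adjusted p = 2.10e-10). The fractal libraries did not overlap the smooth ones in any of these genes, as in 3042 of the 3220 called genes. For UBE2C, FOXM1, RRM2 and CLSPN the rule that chose them required it. CDKN1A, the cell-cycle inhibitor p21 and a target of p53, was at 244, 235 and 253 CPM on the smooth surface and 241, 238 and 242 CPM on the fractal one and did not pass the test (adjusted p = 0.871).

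Promoters of these genes carry known elements of the cell cycle, shown here because the 2 lists moved as blocks. Late cell-cycle genes hold the cell-cycle homology region (CHR), and genes of the G1/S step hold sites for E2F factors. In RefSeq promoters of build GRCh38.p14, from 250 bases before to 50 after the start, the CHR letters TTTGAA, on either strand, occurred in 22 of the 30 mitosis promoters matched (73.3%), against 9.97% of the 11381 promoters matched to tested genes and 15.4% of all 27305. Letters of an E2F site (TTTCCCGC, TTTGGCGC, TTTCGCGC or TTTGCCGC, on either strand) occurred in 19 of the 29 replication promoters matched (65.5%), against 5.26% and 3.33%. CCAAT, on either strand, was in 80.0% of the mitosis promoters and 36.3% of those of tested genes. The sequences run from 250 bases before to 30 after the start, 5′ to 3′ on the strand of the gene, with the CHR letters in capitals for ANLN (chr7:36389612-36389891, plus strand) and TOP2A (chr17:40417867-40418146, minus strand) and the E2F letters in capitals for CDC6 (chr17:40287629-40287908, plus strand) and CLSPN (chr1:35769949-35770228, minus strand).
ANLN: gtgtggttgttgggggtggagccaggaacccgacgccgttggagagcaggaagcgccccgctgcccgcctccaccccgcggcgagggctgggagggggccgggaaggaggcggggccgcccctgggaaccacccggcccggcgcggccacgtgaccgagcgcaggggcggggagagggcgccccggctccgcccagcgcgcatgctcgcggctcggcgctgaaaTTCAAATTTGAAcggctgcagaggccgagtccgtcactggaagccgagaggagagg
TOP2A: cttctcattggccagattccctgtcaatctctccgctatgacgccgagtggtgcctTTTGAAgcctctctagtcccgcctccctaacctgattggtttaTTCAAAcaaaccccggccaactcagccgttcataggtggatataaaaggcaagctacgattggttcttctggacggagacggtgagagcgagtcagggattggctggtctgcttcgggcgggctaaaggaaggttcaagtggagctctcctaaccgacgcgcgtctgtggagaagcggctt
CDC6: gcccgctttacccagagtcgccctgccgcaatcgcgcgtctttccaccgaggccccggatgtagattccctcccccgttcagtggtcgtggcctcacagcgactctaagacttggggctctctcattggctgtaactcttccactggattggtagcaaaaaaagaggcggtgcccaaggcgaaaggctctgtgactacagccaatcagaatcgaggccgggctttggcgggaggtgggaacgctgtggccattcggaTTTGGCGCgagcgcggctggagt
CLSPN: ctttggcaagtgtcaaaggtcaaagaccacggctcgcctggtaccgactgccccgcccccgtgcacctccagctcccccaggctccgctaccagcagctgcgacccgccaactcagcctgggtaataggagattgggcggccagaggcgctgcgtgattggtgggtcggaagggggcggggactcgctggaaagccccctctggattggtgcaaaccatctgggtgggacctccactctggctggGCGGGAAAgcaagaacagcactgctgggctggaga
In ANLN the 2 matches lie side by side with their first bases 26 and 20 bases before the start. In CLSPN the match begins 5 bases before the start and in CDC6 at base 8 after it. Such a match is a description of the letters and not of binding.

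The inflammatory genes did not move as one. On the fractal surface 4 of 6 neutrophil-attracting CXC chemokines and 6 of 19 complement genes rose (8.25% of all genes). The 28 other targets of NF-κB and TNF split into 7 higher and 9 lower (11.7% of all genes lower). Under cytokines 20 of those 28 were lower on the fractal surface (2.74% of all genes) and 0 higher (1.72%). Of the 16 called under THP-1, 9 were lower in both treatments and 5 were higher under THP-1 and lower under cytokines. Over all 3220 genes called under THP-1 these counts were 102 and 113.

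Of the 6 CXC chemokines tested, 4 rose and 0 fell (8.25% and 11.7% of all genes), with a median log2 fold change of 0.84, and without fractal replicate 3 the counts were also 4 and 0. CXCL6 (ENSG00000124875, chr4:73836497-73849064, plus strand) was at 119, 119 and 113 CPM on the smooth surface and 478, 485 and 596 CPM on the fractal one (log2 fold change 2.15 ± 0.13, adjusted p = 4.78e-11). CXCL1 (ENSG00000163739, chr4:73869393-73871242, plus strand) was at 254, 253 and 271 CPM on the smooth surface and 562, 581 and 495 CPM on the fractal one (log2 fold change 1.07 ± 0.09, adjusted p = 1.40e-09). Both attract neutrophils through CXCR2, and in both the fractal libraries lay wholly above the smooth ones. CXCL2 was at 3.72, 6.78 and 5.05 CPM on the smooth surface and 13.3, 13.3 and 16 CPM on the fractal one (log2 fold change 1.44 ± 0.18, adjusted p = 1.20e-06). CXCL5 was at 26.9, 29.4 and 28.3 CPM on the smooth surface and 36.6, 37.3 and 54.7 CPM on the fractal one (log2 fold change 0.60 ± 0.14, adjusted p = 0.00298), with the highest value in replicate 3, and missed the threshold in the fit to the 6 THP-1 libraries alone. CXCL8, or interleukin 8, was at 1350, 1378 and 1400 CPM on the smooth surface and 1337, 1229 and 1194 CPM on the fractal one and did not pass (adjusted p = 0.268).

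Under cytokines all 6 of these chemokines were lower on the fractal surface (2.74% of all genes), so the 4 that rose under THP-1 were called in opposite directions in the 2 treatments. CXCL6 averaged 1062 ± 204 CPM (SD, n = 3) on the smooth and 116 ± 21.7 on the fractal surface under cytokines, and 58.1 ± 4.0 and 42.2 ± 2.62 CPM in untreated cells. Its difference under THP-1 exceeded that under cytokines by 5.34 ± 0.19 on the log2 scale (adjusted p = 9.94e-15) and that in the controls by 2.61 ± 0.18 (adjusted p = 4.92e-09). CXCL1 averaged 1661 ± 183 and 433 ± 43.9 CPM under cytokines and 232 ± 5.15 and 172 ± 1.93 CPM in untreated cells. All 6 exceeded their difference under cytokines (5.04% of all genes), and 3 exceeded that in the controls (5.35%). CXCL5 and CXCL6 are close paralogs, and how the authors counted reads that fit both is not given in the sources used here.

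Promoters of the chemokines are shown for their NF-κB letters. The NF-κB consensus occurred on either strand in 5 of the 7 CXC promoters (71.4%), against 13.0% of the promoters of tested genes and 10.8% of all promoters. For CXCL6 (chr4:73836428-73836707, plus strand) and CXCL1 (chr4:73869143-73869422, plus strand) the capitals mark 2 overlapping matches, which begin 90 and 89 bases before the start in CXCL6 and 79 and 78 before it in CXCL1.
CXCL6: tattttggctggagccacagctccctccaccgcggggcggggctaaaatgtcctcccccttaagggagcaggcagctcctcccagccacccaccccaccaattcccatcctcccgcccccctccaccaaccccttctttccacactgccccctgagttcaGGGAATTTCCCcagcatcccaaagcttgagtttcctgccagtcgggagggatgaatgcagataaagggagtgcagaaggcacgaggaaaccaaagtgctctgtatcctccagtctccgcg
CXCL1: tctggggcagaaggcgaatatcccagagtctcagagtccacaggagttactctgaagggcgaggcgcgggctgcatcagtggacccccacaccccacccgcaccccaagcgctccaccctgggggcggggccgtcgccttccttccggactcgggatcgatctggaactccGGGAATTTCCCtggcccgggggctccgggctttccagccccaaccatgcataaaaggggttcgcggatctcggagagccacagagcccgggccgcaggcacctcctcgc
The same letters were in 39.1% of the promoters of the other NF-κB targets, which moved both ways.

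Other chemokines and cytokines gave smaller or less stable differences. CCL2, which attracts monocytes, was at 132, 128 and 135 CPM on the smooth surface and 99.8, 96.9 and 41.8 CPM on the fractal one and did not pass (adjusted p = 0.092). Replicate 3 had the lowest value, and CCL2 passed in the fit to the THP-1 libraries without it (adjusted p = 8.22e-07). CXCL12, a chemokine of stem and immune cells, was at 9.77, 9.34 and 11.4 CPM on the smooth surface and 18.3, 17.1 and 12.4 CPM on the fractal one (log2 fold change 0.65 ± 0.20, adjusted p = 0.0225) and missed the threshold without any one of smooth replicates 1 and 2 and fractal replicates 1 and 2 and in the fit to the 6 THP-1 libraries alone (adjusted p = 0.0591). IL6 was at 116, 121 and 121 CPM on the smooth surface and 164, 155 and 135 CPM on the fractal one (log2 fold change 0.34 ± 0.09, adjusted p = 0.00569), with no overlap, and missed the threshold in the fit to the 6 THP-1 libraries alone. IL6 is both an NF-κB target and 1 of the 2 cytokines given in the cytokine groups. Under cytokines IL6 averaged 164 ± 16.3 and 59.4 ± 5.22 CPM (SD, n = 3) on the smooth and the fractal surface, and its difference under THP-1 exceeded that by 1.81 ± 0.12 (adjusted p = 2.01e-10). Interleukin 1 exists as the α and β forms, both made by macrophages. IL1B was at 155, 160.1 and 156 CPM on the smooth surface and 154, 141 and 111 CPM on the fractal one (adjusted p = 0.383). IL1A was at 57, 65 and 55.4 CPM on the smooth surface and 37.3, 44.8 and 23.1 CPM on the fractal one (log2 fold change -0.74 ± 0.24, adjusted p = 0.0394) and lost the call without replicate 3 (adjusted p = 0.162). It also lost the call without any 1 of the smooth replicates or fractal replicate 1 (adjusted p = 0.0641 to 0.130 in edgeR's test), in the fit to the 6 THP-1 libraries alone, with upper-quartile scaling and with no filter. TNF, a main product of macrophages, was at 0.698, 1.82 and 2.1 CPM on the smooth surface and 0.352, 0.354 and 0.168 CPM on the fractal one (log2 fold change -2.34 ± 0.67, adjusted p = 0.0148). TNF missed the threshold in the fit to the THP-1 libraries alone and without smooth replicate 2 or 3.

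Of 28 other targets of NF-κB and TNF tested, 7 rose and 9 fell (8.25% and 11.7% of all genes), with a median of -0.17. Without replicate 3 the counts were 7 and 11, with a median of -0.28. Those that rose included SOD2, the mitochondrial superoxide dismutase, at 396, 414 and 363 CPM on the smooth surface and 773, 806 and 1072 CPM on the fractal one (log2 fold change 1.18 ± 0.11, adjusted p = 1.01e-08). SLC7A2, an arginine transporter, ZC3H12A, an RNase that degrades inflammatory transcripts, and TNFAIP6, a hyaluronan-binding protein, rose by 0.85 ± 0.08, 0.80 ± 0.09 and 1.46 ± 0.21. NFKBIZ, a nuclear regulator of NF-κB, was at 137, 163 and 172 CPM on the smooth surface and 252, 265 and 215 CPM on the fractal one (log2 fold change 0.64 ± 0.10, adjusted p = 3.06e-05), the 1 of 19 NF-κB subunits and inhibitors that rose, while 2 fell. With all libraries both counts are at or under the share over all genes. Without replicate 3, 1 of the 19 rose and 8 fell (9.09% and 14.0% of all genes), the 8 being above that share. The median of these 19 genes was -0.09 with all libraries and -0.20 without replicate 3. All values of SOD2, SLC7A2, ZC3H12A, TNFAIP6 and NFKBIZ were higher on the fractal surface than on the smooth one.

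TRAF1, an adaptor of TNF receptors, was the clearest of those that fell, at 78, 80.4 and 79.2 CPM on the smooth surface and 23.3, 23.6 and 27.5 CPM on the fractal one (log2 fold change -1.68 ± 0.12, adjusted p = 1.39e-10). CD83, a glycoprotein of activated antigen-presenting and other cells, was at 9.65, 8.94 and 10.9 CPM on the smooth surface and 2.99, 2.72 and 3.54 CPM on the fractal one (log2 fold change -1.68 ± 0.26, adjusted p = 4.29e-05). IL32 was at 194, 194 and 218 CPM on the smooth surface and 97.6, 98.8 and 119 CPM on the fractal one (log2 fold change -0.94 ± 0.10, adjusted p = 1.83e-07). TNFRSF9 (4-1BB) fell by 1.57 ± 0.20 on the log2 scale. In all of these the smooth libraries lay above the fractal ones, including replicate 3. CSF1, the growth factor of macrophages, was at 233, 234 and 209 CPM on the smooth surface and 117, 110.1 and 144 CPM on the fractal one (log2 fold change -0.87 ± 0.10, adjusted p = 2.50e-07), and CSF2 also fell (-1.39 ± 0.30), the only 2 of 4 colony-stimulating factors called, with 2 also called without replicate 3. The macrophage marker sum was lower in the same fractal libraries, at 22.5 to 30.8 CPM against 66.5 to 74.6, and its part in these falls was not tested. Under cytokines, where that sum was 2.07 and 1.94 CPM, the means of CD83 were 8.45 ± 1.36 and 1.85 ± 0.304 CPM (SD, n = 3) and those of CSF1 193 ± 25.3 and 95.6 ± 4.45 CPM on the smooth and the fractal surface, while TRAF1 stood at 12.3 ± 1.63 and 7.09 ± 0.979 CPM.

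ICAM1, which binds β2 integrins of leukocytes, was at 99, 90.9 and 88.6 CPM on the smooth surface and 58.4, 62.9 and 59.7 CPM on the fractal one (log2 fold change -0.62 ± 0.09, adjusted p = 7.57e-06), with no overlap. In untreated cells its means were 17.3 ± 1.42 and 22.6 ± 0.537 CPM (SD, n = 3), and the difference under THP-1 was lower than that in the controls by 1.01 ± 0.13 (adjusted p = 3.86e-06). VCAM1, which binds α4 integrins, was at 432, 388 and 410.2 CPM on the smooth surface and 474, 452 and 556 CPM on the fractal one (log2 fold change 0.27 ± 0.09, adjusted p = 0.0467), and without replicate 3 its adjusted p was 0.125. VCAM1 also missed the threshold without any 1 of the smooth replicates or fractal replicate 1 (adjusted p = 0.0505 to 0.171) and in the fit to the 6 THP-1 libraries alone (0.132). NFKBIA, the inhibitor IκBα, was at 97.6, 102 and 104 CPM on the smooth surface and 85.1, 77 and 98.6 CPM on the fractal one (adjusted p = 0.0739) and TNFAIP3, the ubiquitin-editing enzyme A20, at 198, 197 and 193 CPM on the smooth surface and 169.7, 180 and 203 CPM on the fractal one (adjusted p = 0.48). Neither of these 2 feedback inhibitors passed the test with all libraries. Without replicate 3 NFKBIA did (log2 fold change -0.32, adjusted p = 0.0018), and TNFAIP3 passed in the fit to the THP-1 libraries without it (adjusted p = 0.0376).

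**Figure D3:**
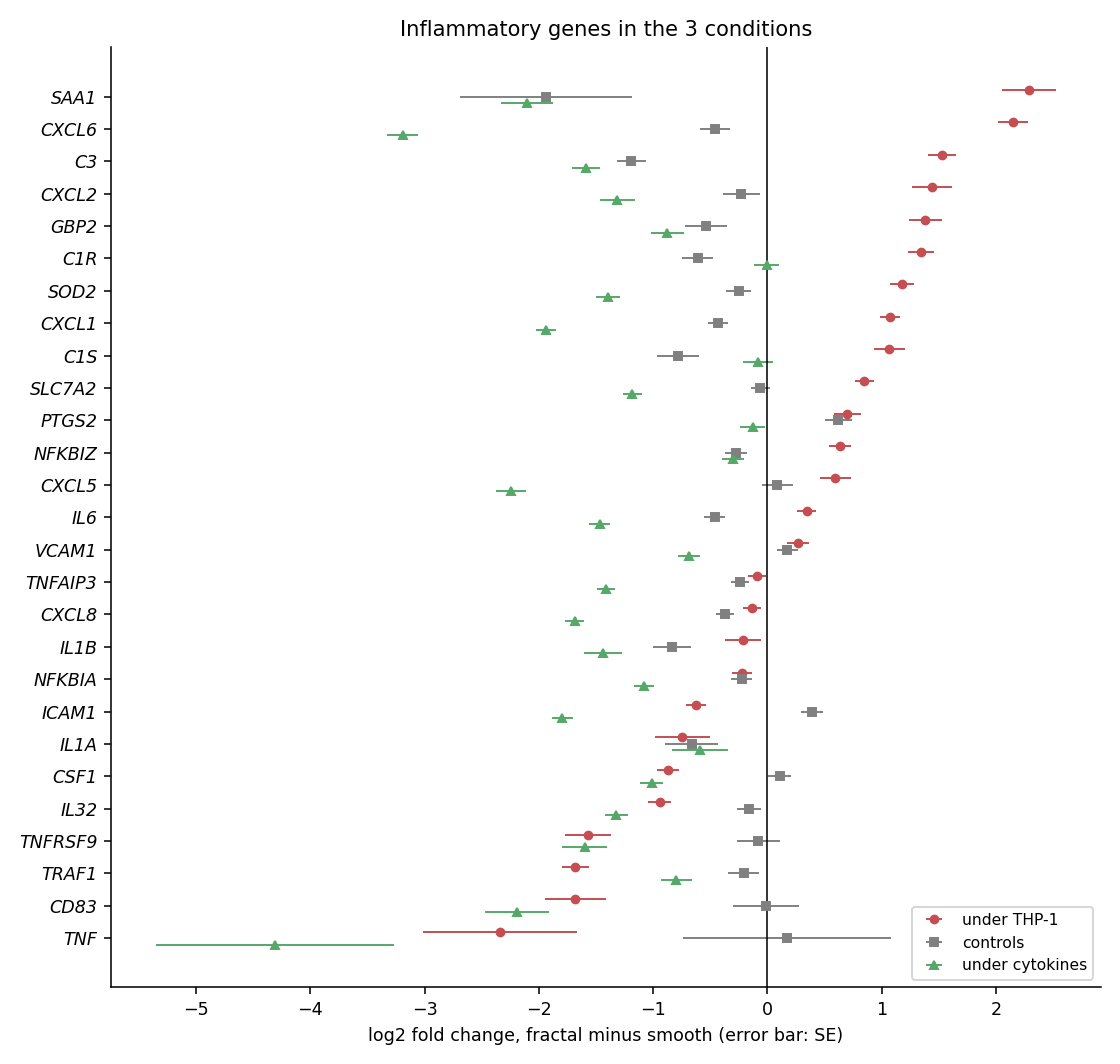
Log2 fold change between surfaces (x axis, fractal minus smooth, error bars SE) of inflammatory genes under THP-1 (red circles), in controls (grey squares) and under cytokines (green triangles). CXCL6, C3, SOD2 and CXCL1 lie right of 0 under THP-1 and left of 0 under cytokines, whereas TRAF1, CD83, CSF1 and IL32 lie left of 0 in both.

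The complement cascade tags targets for removal by phagocytes and is made by many cells during inflammation. Of 19 complement components and regulators, 6 rose and 3 fell (8.25% and 11.7% of all genes), with a median of 0.34, and 6 and 2 without replicate 3. C3, the central component, was at 466, 418 and 432 CPM on the smooth surface and 1244, 1240 and 1306 CPM on the fractal one (log2 fold change 1.53 ± 0.12, adjusted p = 3.28e-09). C1R, a protease of the C1 complex, was at 60.6, 58.8 and 62.7 CPM on the smooth surface and 148, 145 and 170.1 CPM on the fractal one (log2 fold change 1.35 ± 0.11, adjusted p = 3.96e-09). C1S and CLU, which encodes clusterin, rose by 1.07 ± 0.14 and 1.49 ± 0.18. The fractal libraries were all above the smooth ones in these 4 genes. In untreated cells C3 averaged 92.8 ± 5.53 CPM (SD, n = 3) on the smooth and 40.6 ± 0.958 on the fractal surface and under cytokines 1853 ± 488 and 617 ± 17.4, so that the order of the surfaces was the opposite there. The difference under THP-1 exceeded that in the controls by 2.72 ± 0.18 and that under cytokines by 3.11 ± 0.17 (adjusted p = 1.37e-09 and 2.91e-11). SAA1, an acute-phase apolipoprotein, was at 5.87, 6.04 and 5.89 CPM on the smooth surface and 21, 24.3 and 42.6 CPM on the fractal one (log2 fold change 2.29 ± 0.24, adjusted p = 2.00e-07), highest in replicate 3, and SAA2 at 2.21, 2.73 and 2.47 CPM on the smooth surface and 12.8, 10.7 and 7.83 CPM on the fractal one (log2 fold change 2.09 ± 0.27, adjusted p = 3.50e-06). SAA1 and SAA2 are near-identical and may share reads. None of the 3 fibrinogen chains was called by edgeR, and 0 had an unadjusted p under 0.05, while DESeq2 called FGB higher (adjusted p = 0.00592). FGB was at 0.349, 0.0569 and 0.12 CPM on the smooth surface and 0.586, 0.532 and 1.43 CPM on the fractal one, against 48.1 ± 5.42 and 306 ± 2.84 CPM in the smooth and the fractal controls.

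Of 23 genes of the interleukin 6 family, its receptors and STAT3 targets, 7 rose and 3 fell (8.25% and 11.7% of all genes), with a median of 0.25, and 8 and 3 without replicate 3. Of 32 genes of the type I interferon response, 2 rose, near the share over all genes, and 11 fell, with a median of -0.41, and without replicate 3 the counts were 3 and 13. GBP2, a guanylate-binding protein, was at 15, 15.4 and 14.7 CPM on the smooth surface and 39.2, 43.2 and 35.1 CPM on the fractal one (log2 fold change 1.38 ± 0.14, adjusted p = 8.96e-08). IFIT1, an antiviral RNA-binding protein, was at 8.31, 7.97 and 5.89 CPM on the smooth surface and 3.63, 3.6 and 2.53 CPM on the fractal one (log2 fold change -1.17 ± 0.27, adjusted p = 0.00292), and OAS3, an antiviral nucleotide synthase, fell by 1.48 ± 0.38. GBP2 was thus higher in every fractal library while IFIT1 was lower in every one. IL33, a nuclear cytokine of the interleukin 1 family, was at 93.8, 89.3 and 95.2 CPM on the smooth surface and 281, 284 and 195 CPM on the fractal one (log2 fold change 1.45 ± 0.19, adjusted p = 4.04e-05), 1 of 2 genes that rose among 16 of that family and its receptors, of which 4 fell, while without replicate 3 the counts were 3 and 3. Of 13 genes of prostaglandin synthesis 6 rose and 2 fell, and 6 and 3 without replicate 3, with a median of -0.09 that was 0.11 without it. PTGS2, or cyclooxygenase 2, was at 34.9, 40.1 and 37.9 CPM on the smooth surface and 64.2, 67.6 and 51.1 CPM on the fractal one (log2 fold change 0.70 ± 0.12, adjusted p = 1.22e-04), and PTGES, the prostaglandin E synthase, at 0.988, 1.03 and 1.32 CPM on the smooth surface and 5.51, 3.96 and 3.2 CPM on the fractal one (log2 fold change 1.94 ± 0.26, adjusted p = 6.16e-06). For PTGS2 the difference did not pass the test against the controls (0.08 ± 0.17, adjusted p = 0.828), whose means were 44.9 ± 1.7 and 69 ± 2.45 CPM (SD, n = 3).

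**Figure D4:**
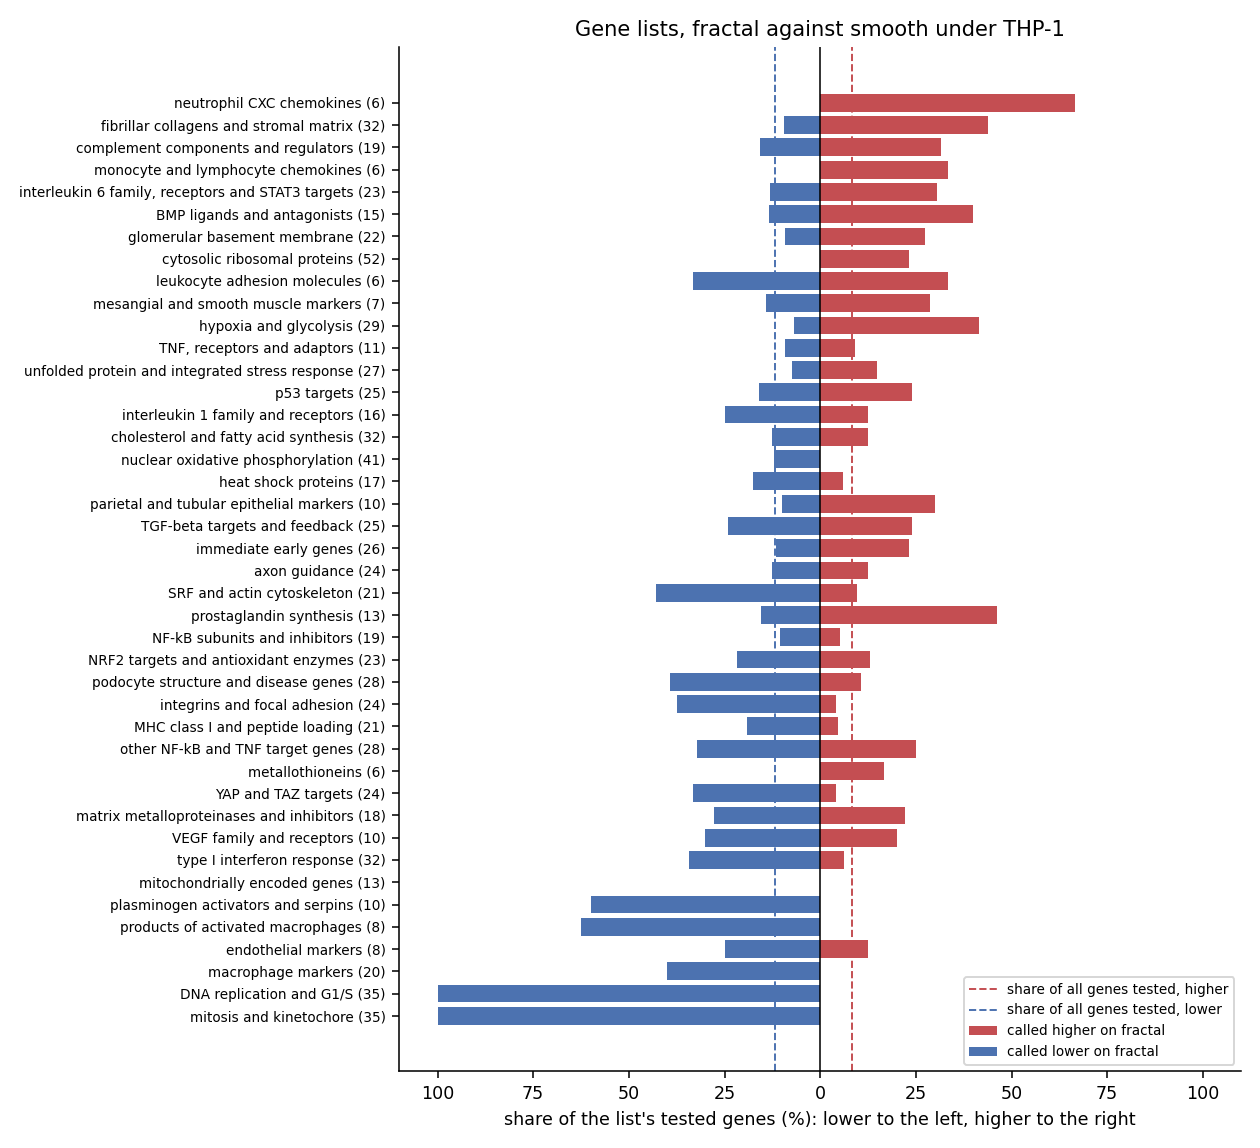
Share of each gene list's tested genes (number in brackets) called higher (red, to the right) or lower (blue, to the left) on the fractal surface under THP-1, with dashed lines at the shares over all genes tested, 8.25% and 11.7%, and lists ordered by median log2 fold change. Mitosis and DNA replication reach 100% lower, and the neutrophil CXC chemokines, prostaglandin synthesis, stromal matrix and hypoxia lists hold the longest bars to the right.

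Matrix, adhesion and cytoskeleton genes moved in opposite groups: most called stromal matrix components were higher, and most called genes of adhesion to matrix, the actin cytoskeleton and plasminogen control were lower. Of 32 fibrillar collagens and stromal matrix genes, 14 rose and 3 fell (8.25% and 11.7% of all genes), with a median of 0.40, and without replicate 3 the counts were 12 and 3 with a median of 0.23. DCN, decorin, which binds collagen and growth factors, was at 15.4, 15.1 and 10.6 CPM on the smooth surface and 34.7, 31.3 and 40.2 CPM on the fractal one (log2 fold change 1.37 ± 0.15, adjusted p = 6.03e-07). THBS2, thrombospondin 2, was at 118, 105 and 119.6 CPM on the smooth surface and 237, 233 and 257 CPM on the fractal one (log2 fold change 1.09 ± 0.12, adjusted p = 2.99e-07). COL12A1, a fibril-associated collagen, and POSTN, periostin, rose by 0.70 ± 0.10 and 0.75 ± 0.12. FN1, fibronectin, a glycoprotein that took a large part of the counts of every library, was at 139700, 115500 and 121700 CPM on the smooth surface and 185700, 174700 and 139700 CPM on the fractal one (log2 fold change 0.41 ± 0.11, adjusted p = 0.0126). Smooth replicate 1 and fractal replicate 3 were equal to the digits given, and FN1 missed the threshold without smooth replicate 2 or 3 or fractal replicate 1 and in the fit to the THP-1 libraries alone. Against these, THBS1, thrombospondin 1, was at 560.4, 510.3 and 489 CPM on the smooth surface and 242, 232 and 229.8 CPM on the fractal one (log2 fold change -1.15 ± 0.16, adjusted p = 3.92e-05), and COL6A3, a chain of collagen VI, fell by 0.75 on the log2 scale.

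Of 22 genes of the glomerular basement membrane, 6 rose and 2 fell (8.25% and 11.7% of all genes), with a median of 0.17 that was 0.016 without replicate 3, where 6 rose and 4 fell. LAMA3, NID2, LAMB2 and COL4A6 rose by 0.78 ± 0.10, 0.73 ± 0.10, 0.59 ± 0.09 and 0.73 ± 0.12. COL4A3 and COL4A4 encode collagen chains of the mature glomerular basement membrane. COL4A3 was at 1.16, 1.03 and 1.68 CPM on the smooth surface and 0.762, 0.65 and 1.52 CPM on the fractal one. COL4A4 was at 6.51, 7.46 and 6.97 CPM on the smooth surface and 6.68, 4.72 and 6.74 CPM on the fractal one. In both the groups overlapped and the test was not passed.

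Of 24 integrins and focal adhesion genes, 1 rose and 9 fell (8.25% and 11.7% of all genes), with a median of -0.14, and 0 rose and 11 fell without replicate 3. ITGA4, an integrin chain that binds fibronectin and VCAM1, was at 46, 34.6 and 35.5 CPM on the smooth surface and 20.6, 14.7 and 14.4 CPM on the fractal one (log2 fold change -1.22 ± 0.12, adjusted p = 7.29e-08). ITGA6, a laminin-binding chain, was at 26.2, 17.9 and 21 CPM on the smooth surface and 9.56, 8.62 and 12.7 CPM on the fractal one (log2 fold change -1.09 ± 0.15, adjusted p = 8.12e-06). The groups did not overlap in either chain. ITGA2, a collagen-binding chain, and PXN, paxillin, fell by 0.54 and 0.51 on the log2 scale. For ITGA4 the difference under THP-1 was lower than in the controls, where the means were 85.1 ± 3.72 and 113 ± 1.06 CPM (SD, n = 3), by 1.63 ± 0.17 (adjusted p = 1.84e-07). Of 21 targets of SRF and genes of the actin cytoskeleton, 2 rose and 9 fell, with a median of -0.08, and without replicate 3 the counts were 1 and 8 with a median of -0.22. Of 24 YAP and TAZ targets 1 rose and 8 fell, with a median of -0.18, and without replicate 3 the counts were 3 and 11 with a median of -0.19. ACTB and CNN2, which encode β-actin and calponin 2, fell by 0.42 and 0.40 on the log2 scale. NT5E, the ecto-5′-nucleotidase CD73, was at 468, 435 and 432 CPM on the smooth surface and 282, 273 and 214 CPM on the fractal one (log2 fold change -0.79 ± 0.10, adjusted p = 1.63e-06), and DLC1 and CCN1 fell by 0.69 and 0.46. IGFBP3, which binds insulin-like growth factors, was the 1 YAP and TAZ target that rose with all libraries, at 234, 224 and 233 CPM on the smooth surface and 501, 479 and 565 CPM on the fractal one (log2 fold change 1.16 ± 0.10, adjusted p = 7.10e-09). The fractal libraries were thus higher for this gene and lower for the other called targets on that list. FOSL1, a subunit of AP-1, was at 94.3, 80.1 and 82.8 CPM on the smooth surface and 32.1, 32.7 and 19.3 CPM on the fractal one (log2 fold change -1.60 ± 0.18, adjusted p = 2.78e-06).

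All 6 called members of the 10 plasminogen activators and serpins fell (11.7% of all genes), with a median of -0.61 over the 10, and 7 fell without replicate 3. Matrix metalloproteinases and their inhibitors were mixed, with 4 of 18 higher (8.25% of all genes) and 5 lower, and the same counts without replicate 3. MMP1, interstitial collagenase, was at 413, 391 and 405 CPM on the smooth surface and 185, 167 and 198 CPM on the fractal one (log2 fold change -1.14 ± 0.10, adjusted p = 6.86e-09), and MMP14, a membrane-bound activator of MMP2, fell by 0.59. MMP2, a gelatinase, was at 1083, 1011 and 1029 CPM on the smooth surface and 1562, 1524 and 1618 CPM on the fractal one (log2 fold change 0.59 ± 0.08, adjusted p = 2.10e-06), and TIMP2 rose by 0.47 ± 0.07.

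**Figure D5:**
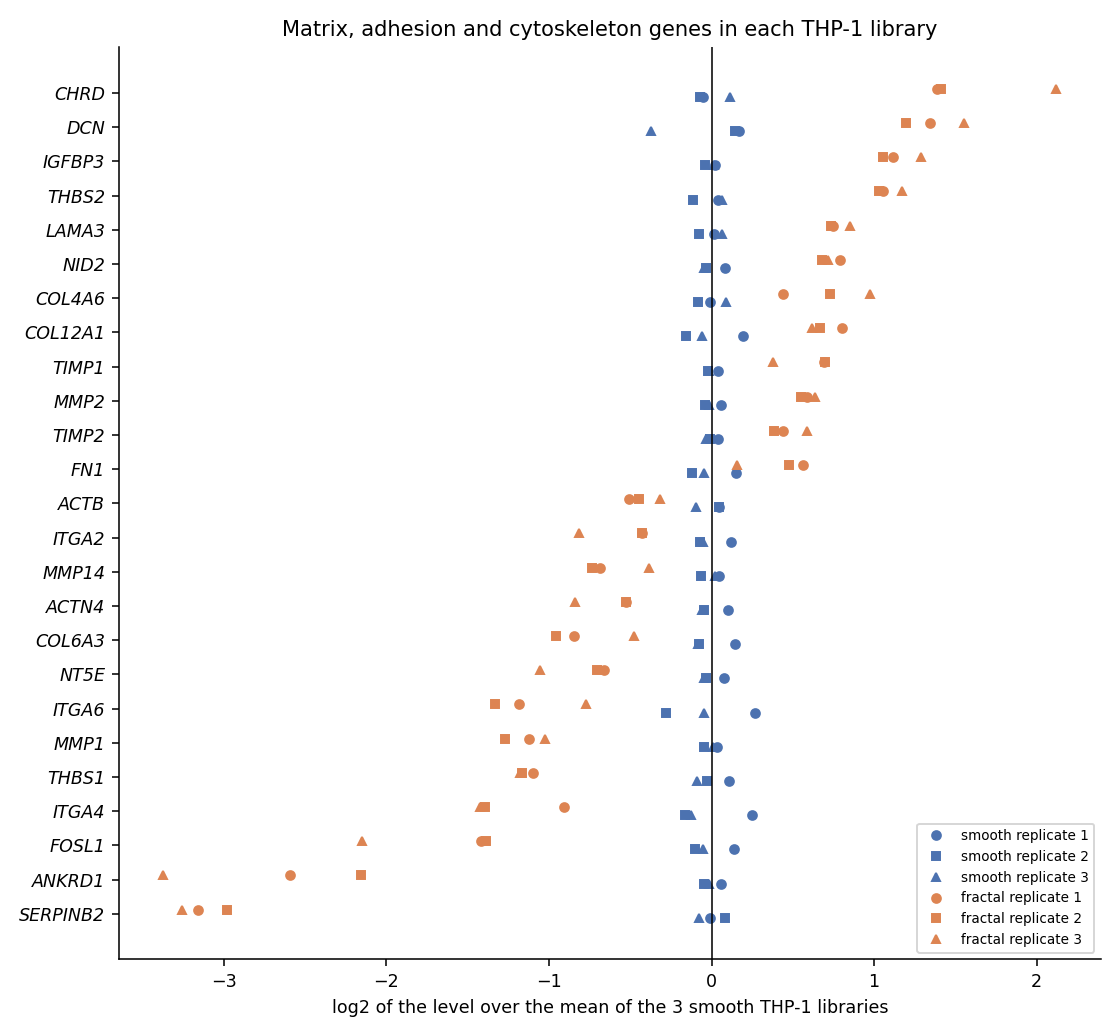
Level of matrix, adhesion and cytoskeleton genes in each THP-1 library (x axis) as log2 of its ratio to the mean of the 3 smooth THP-1 libraries, with smooth libraries in blue and fractal ones in orange. From SERPINB2 and ANKRD1, lowest on the fractal surface, to DCN and CHRD, highest, the orange points of these genes stand apart from the blue ones, except in FN1, where they touch. The genes shown were picked from those called under THP-1, and the groups did not overlap in 3042 of all 3220 called genes. SERPINB2 and ANKRD1 were named by a rule that required no overlap.

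Of 28 podocyte structure and disease genes tested, out of 37 listed, 3 rose and 11 fell (8.25% and 11.7% of all genes), with a median of -0.14, and without replicate 3 the counts were 3 and 10 with a median of -0.41. PODXL, podocalyxin of the podocyte surface, was at 5.17, 6.32 and 6.85 CPM on the smooth surface and 3.34, 2.36 and 1.94 CPM on the fractal one (log2 fold change -1.24 ± 0.24, adjusted p = 4.33e-04). ACTN4, an actin crosslinker mutated in inherited glomerulosclerosis, was at 1248, 1126 and 1117 CPM on the smooth surface and 807, 808 and 650.4 CPM on the fractal one (log2 fold change -0.62 ± 0.09, adjusted p = 2.39e-05), with no overlap. ARHGDIA, a GDP dissociation inhibitor, and the transcription factor FOXC2 fell by 0.65 and 0.81 on the log2 scale. Both FOXC factors act in podocyte development. FOXC1, the close relative of FOXC2, was at 17.8, 16.4 and 18.3 CPM on the smooth surface and 35.4, 35.6 and 33.3 CPM on the fractal one (log2 fold change 0.99 ± 0.13, adjusted p = 5.67e-06). SYNPO, synaptopodin of the podocyte actin bundles, was at 66.9, 58.1 and 57.2 CPM on the smooth surface and 66.9, 74.6 and 54.8 CPM on the fractal one and did not pass (adjusted p = 0.525), although it did in the fit to the THP-1 libraries without replicate 3 (adjusted p = 0.0208). TERT, which immortalises the line, was at 2883, 2542 and 2570 CPM on the smooth surface and 2036, 2015 and 3251 CPM on the fractal one and did not pass (adjusted p = 0.521). Replicate 3 held the highest TERT value of the 6, and without it TERT was lower on the fractal surface (log2 fold change -0.40, adjusted p = 1.18e-05).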

How the data were processed

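RNA from small samples was enriched for poly-A transcripts and sequenced in pairs, without strand information, per the labels' protocols. The authors deposited 1 table of raw counts, with CASAVA, HISAT2 2.0.5, featureCounts 1.5.0-p3 and build GRCh38 (hg38) named, without roles, per the submitters' processing notes. The annotation release is not given in the sources used here, and positions came from GENCODE by Ensembl identifier.

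The counts were tested with edgeR 4.0.16 in R 4.3.3: TMM scaling, filterByExpr (min.count 10, min.total.count 15), a mean for each of the 6 groups over 18 libraries, robust quasi-likelihood F-tests (12 residual degrees of freedom and a biological coefficient of variation of 12.2%) and Benjamini-Hochberg adjustment within a comparison at 0.05. The macrophage sum and the mitochondrial share were tested by exact permutation in SciPy 1.17.1 (Python 3.11.15), and figures were drawn with matplotlib 3.10.9. On simulated counts for 16129 genes the comparison under THP-1 recovered 72% of genes changed 2-fold and 50% of those changed 1.5-fold. It made 2 false calls. Apart from the genes changed, the simulation gave all groups the smooth THP-1 means and the same spread for a gene. It held no library like fractal THP-1 replicate 3, so these figures do not measure the error in the data.

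The members and lists were chosen with earlier results of these data known. Named genes are the up to 12 called protein-coding genes each way with the largest fold, a higher group mean of 5 CPM or more and groups that do not overlap, the up to 4 of each list each way with the lowest adjusted p, and 27 fixed genes, and fewer are named in rank order, some results not being reported here. Of 241 such genes, 103 overlap a gene on the other strand and their reads cannot be separated, among them BDKRB2, STAT4, FOXM1, ANLN, CLSPN, ICAM1, SOD2, IL6, C1S, TNFRSF9, IL32, CDKN1A, THBS1, THBS2, MMP1, MMP2, PODXL, ACTN4, FOXC2, ARHGDIA, ITGA6, ITGB2, CHRD, VEGFA, ENO1, IFIT1 and OAS3. Alternatives were DESeq2 1.42.0, limma-voom (limma 3.58.1), RLE and upper-quartile scaling, the replicate number as a block, a log2 fold threshold of 1, fits to the groups compared alone, no filter or one of 1 CPM in 3 libraries, and leaving libraries out.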

Additional observations from a re-analysis of the deposited data

Results flagged for a closer look

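The difference between surfaces under THP-1 departed, by the test of the difference itself (edgeR's quasi-likelihood test, adjusted p under 0.05), from that in untreated cells in 2134 genes and from that under cytokines in 1847. Among the genes named for their fold or fixed in the list of 27, some were called in opposite directions in the conditions compared. Against cytokines the departure on the log2 scale was 5.34 for CXCL6, 4.39 for SAA1, 4.22 for SAA2, 3.46 for CSGALNACT1, 3.11 for C3, 3.01 for CXCL1, 2.57 for SOD2, 1.81 for IL6 and 0.95 for VCAM1. ANKRD1 went the other way, at -3.20. Against untreated cells it was 2.72 for C3, 1.51 for CXCL1, 0.81 for IL6 and -1.01 for ICAM1. In each of these genes the 3 fractal libraries lay on one side of the 3 smooth libraries under THP-1, as in 3042 of the 3220 called genes. For those named for their fold the rule required it. The reads of SAA1 and SAA2 may be shared, and VCAM1 lost its call under THP-1 when any 1 library but fractal replicate 2 was left out.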

How the results depend on the processing

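Of the 228 named genes called under THP-1, 144 kept the call in every setting but the log2 fold threshold of 1, and 0 changed direction in any setting run. For the count of called genes under THP-1 (3220), that threshold gave 190 and the fit to the groups compared alone 1412, and leaving out 1 library gave 2323 to 3847. Leaving out both libraries that stood apart gave 4222, and the THP-1 libraries alone without fractal replicate 3 gave 4482. For the test against controls (2134) the fold threshold gave 175, leaving out 1 library 1632 to 3266, of which 3266 is without fractal THP-1 replicate 3, and leaving out both libraries that stood apart 3642. For the test against cytokines (1847) these were 190, 1373 to 2759 and 3205, and the groups compared alone gave 1172. The cause was not tested, except that fewer libraries or a stricter threshold define those settings. The mitochondrial share difference (-1.03 points) ran from -1.58 to 0.033 when 1 library was left out, the last without fractal THP-1 replicate 3, whose own share was 0.536%. The macrophage sum difference (-43.3 CPM) ran from -45.2 to -41.1. Same-numbered THP-1 libraries did not deviate together from their group means (correlations -0.013, 0.031 and -0.009), and differently numbered ones gave -0.021 to 0.024. The labels do not say whether the numbers pair cultures, and values this small cannot exclude it. With the replicate block 3114, 2086 and 1787 genes were called.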

Other observations

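Further gene groups are read against the 8.25% of all genes that rose and the 11.7% that fell on the fractal surface under THP-1 macrophages. Of 29 genes of hypoxia and glycolysis, 12 rose and 2 fell, the latter under that share, with a median log2 fold change of 0.13, and without fractal replicate 3 the counts were 14 and 7. PDK4, which restrains pyruvate oxidation, was at 5.87, 5.64 and 6.01 CPM on the smooth surface and 25.1, 22.7 and 23.2 CPM on the fractal one (log2 fold change 2.02 ± 0.25, adjusted p = 7.97e-06, edgeR's quasi-likelihood test), and the angiogenic factor VEGFA at 517, 546 and 581 CPM on the smooth surface and 867, 867 and 921 CPM on the fractal one (log2 fold change 0.69 ± 0.12, adjusted p = 2.26e-04). The fractal libraries lay wholly above the smooth ones in both. The glycolytic enzymes ENO1 and PGAM1 were the 2 that fell, by 0.55 and 0.40 on the log2 scale. Of 15 BMP ligands and antagonists 6 rose and 2 fell, and 7 and 2 without replicate 3. CHRD, the BMP antagonist chordin, was at 49.6, 49 and 55.8 CPM on the smooth surface and 135, 137 and 224 CPM on the fractal one (log2 fold change 1.68 ± 0.19, adjusted p = 2.51e-06), highest in replicate 3, whereas it was lower on the fractal surface in untreated cells (-2.13 ± 0.33) and under cytokines (-1.72 ± 0.22). FST and GDF15 rose by 0.73 ± 0.18 and 0.84 ± 0.15, and BMPER fell by 0.85. Of 25 TGF-β targets and feedback genes 6 rose and 6 fell (8 and 6 without replicate 3), among them ID1 at 34.2, 31.8 and 36.4 CPM on the smooth surface and 17.4, 20.7 and 25.9 CPM on the fractal one and ID3 at 47.8, 44.2 and 49 CPM on the smooth surface and 22.6, 25.1 and 30.3 CPM on the fractal one, both targets of BMP signalling (log2 fold change -0.69 ± 0.11, adjusted p = 4.12e-05, and log2 fold change -0.86 ± 0.11, adjusted p = 2.44e-06). NR4A2 and JUND rose by 1.83 ± 0.33 and 0.80 ± 0.17 among 26 immediate early genes, of which 6 rose and 3 fell, the latter near the share over all genes, and 6 and 5 without replicate 3.

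Of 52 cytosolic ribosomal protein genes 12 rose and 0 fell, with a median of 0.16 (8.25% and 11.7% of all genes), and 14 and 1 without replicate 3. In the fit to the 6 THP-1 libraries alone 0 were called, where 584 of 14983 genes rose and 828 fell. Without replicate 3 that fit called 23 higher and 1 lower, where 1961 of 15538 genes rose and 2521 fell. Of 41 nuclear genes of oxidative phosphorylation 0 rose and 5 fell, about the share over all genes, and 10 fell without replicate 3. COX8A and ATP5MC1 fell by 0.90 and 0.77. None of the 13 mitochondrially encoded genes was called by edgeR with all libraries, and 1 rose without replicate 3. Of 7 mesangial and smooth muscle markers 2 rose and 1 fell (2 and 2 without replicate 3), and of 8 endothelial markers 1 rose and 2 fell (1 and 3 of 9 without it), counts too small to set against that share. NOTCH3 of mural cells rose by 1.45 ± 0.27 and CSPG4 fell by 1.36, while of the endothelial markers PECAM1 rose by 1.21 ± 0.30 and CDH5 fell by 1.47. Among 23 listed products of activated macrophages 8 were tested, of which 0 rose and 5 fell (4 without replicate 3). These included SPP1, osteopontin, at 39, 36.4 and 40.9 CPM on the smooth surface and 21.5, 19.6 and 22.8 CPM on the fractal one (log2 fold change -0.87 ± 0.14, adjusted p = 5.40e-05). The count varied with the setting: DESeq2 called 1 higher and 3 lower, and the fit to the 6 THP-1 libraries alone 0 and 3. Without smooth replicate 2, or without smooth replicate 3, 0 of 9 rose and 2 fell. The macrophage marker sum was 0.384 of its smooth level in the same libraries, and its part in these differences was not tested.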
